A study of Mus musculus with 154 samples.

Results

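The genes of the cytoplasmic ribosomal proteins were followed across the livers of mice carrying A/J chromosomes on a C57BL/6J (B6) background. A gene entered the family when GENCODE gave it as protein coding and its symbol was Rpl or Rps followed by a digit, or Rplp0, Rplp1, Rplp2 or Rpsa, with the Rps6k kinases left out, and 83 of the 13289 genes in the count table met this rule. Of these, 77 were core ribosomal proteins, 31 of the small and 46 of the large subunit. Another 5 were relatives by symbol (Rpl7l1, Rpl22l1, Rpl36al, Rps27l and Rps19bp1, the last being a binding partner of Rps19 rather than a ribosomal protein), and Rps12-ps3 is a retrocopy that the annotation gives as protein coding. A further 9 protein-coding symbols of the family were not among the genes tested, and no member was lost to a filter here, since the lowest count of any member in any mouse was 19 (Rps19bp1).

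RNA was measured in the livers of male mice, 5 weeks old and fasted overnight, from 24 strains. Control B6 mice numbered 20. The 8 single chromosome substitution strains (CSSs) were heterozygous for A/J chromosome 3, 4, 5, 6, 8, 10, 14 or 17 and are written A3, A4, A5, A6, A8, A10, A14 and A17 (8 mice each, 7 for A5). The 15 double CSSs, such as A14:A8, were heterozygous for a pair of A/J chromosomes, the first of A3, A6, A14 or A17 and the second of A4, A5, A8 or A10, with 3 to 6 mice each and 71 mice in all, and the cross A3 with A4 was not among them. The first chromosome of each pair came from the dam and the second from the sire in single and double CSSs alike, so the chromosome and the parent that passed it on cannot be told apart. All mice were otherwise B6, and every substitution is a whole chromosome, so no effect below can be placed within it.

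Total counts ranged from 4638701 to 30465477 per mouse, with a median of 16116424. Hepatocyte markers summed to 54218 to 157868 CPM (counts scaled to a common library size) over the mice, led by Alb at a mean of 76676 CPM, while the 6 markers of dividing cells summed to at most 31.0 CPM. In 1 mouse labelled male, of the A14:A4 strain, 4 Y-linked genes summed to 2.94 CPM against at least 227.5 CPM in every other mouse. That mouse, E733, was kept, and no member was called in A14:A4 (background 4.63%), while 1 was called without E733 and 1 without E732. In whole liver, fewer cells of a type and less RNA per cell cannot be told apart.

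Ribosomal proteins are built in the cytoplasm, imported into the nucleolus and assembled there with ribosomal RNA into a small subunit, which decodes the mRNA, and a large subunit, which joins amino acids. Since the proteins are needed in equal numbers, their genes are known for being expressed together. Their mRNAs are short and abundant and begin with a run of pyrimidines at the cap, the terminal oligopyrimidine (TOP) motif, through which mTORC1 and the RNA-binding protein Larp1 control their translation with the supply of nutrients and insulin. Fasting is known to lower their translation, whereas the counts here measure only how much mRNA there is. In B6 liver the 83 genes together took 0.697% of the counts (mean of 20 mice).

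RefSeq start sites (GRCm38.p6) were matched for 62 of the 83 members, giving 73 promoters of 300 bases. The windows below are a selection from genes with effects described later, 5 of them with and 3 without a pyrimidine run at the start. Other such genes are not shown, among them Rpl22, whose windows hold no such run. The selection is thus no measure of how often runs go with effects. Each runs 5′ to 3′ from 40 bases before to 20 bases after the start, and capitals mark an unbroken run of at least 8 pyrimidines within 10 bases on either side of the start. Rps27l has a second start, which is not shown.
Rpl28 (chr7:4792925-4792984, plus strand): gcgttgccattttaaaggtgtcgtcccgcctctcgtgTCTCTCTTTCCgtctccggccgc
Rplp2 (chr7:141447611-141447670, plus strand): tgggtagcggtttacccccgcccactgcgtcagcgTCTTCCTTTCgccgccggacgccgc
Rpl15 (chr14:18270967-18271026, minus strand): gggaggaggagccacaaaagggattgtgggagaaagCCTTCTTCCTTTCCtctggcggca
Rps18 (chr17:33955646-33955705, minus strand): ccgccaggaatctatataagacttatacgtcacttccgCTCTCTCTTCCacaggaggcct
Rpl38 (chr11:114668540-114668599, plus strand): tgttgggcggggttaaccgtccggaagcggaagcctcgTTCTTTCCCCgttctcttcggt
Rps3a1 (chr3:86142649-86142708, minus strand): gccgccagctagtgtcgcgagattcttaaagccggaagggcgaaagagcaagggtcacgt
Rps28 (chr17:33824543-33824602, minus strand): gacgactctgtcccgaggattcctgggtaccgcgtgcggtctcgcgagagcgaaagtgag
Rps27l (chr9:66946046-66946105, plus strand): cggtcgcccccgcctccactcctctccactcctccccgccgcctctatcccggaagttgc

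Such a run lay at 21 of the 73 member promoters (28.8%) and at 7.43% of all 32851 promoters in the table. The letters CTTTCC, on either strand of the 300 bases, were in 50.7% of member promoters and 26.6% of all, CCGGAAG in 35.6% and 8.86%, and TATAAA in 9.59% and 13.6%. A match is only a match of letters, and RefSeq starts need not be the starts used in liver. Members with and without a run did not separate in the counts. The share of variance within strains that a member had in common with the rest of the family had a median of 71.1% for the 21 members with a run and 71.0% for the 41 without, and the share of variance between strains had medians of 37.5% and 33.9%.

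The members differed widely in level. Per kilobase of merged exons, Rplp1, an acidic protein of the stalk that recruits elongation factors, stood highest at 344.5 CPM per kb, followed by Rpl4 at 170.2 and Rps15 at 128.2. The lowest were Rps19bp1 at 5.21, Rps15a at 8.87 and Rpl22l1 at 10.3 CPM per kb. With the length of 1 principal transcript in place of the merged exons, 4 of these 6 extremes remained among the 3 highest and 3 lowest, and Rps15 and Rpl22l1 did not. Among the relatives, Rps27l lay above its partner Rps27 per kb of merged exons (99.2 and 62.3 CPM per kb) and below it by the principal transcript (162.2 and 188.2). By both lengths the other relatives were lower than their partners. Per kb of merged exons, Rpl7l1 (13.1), Rpl22l1 (10.3) and Rpl36al (23.3) lay below Rpl7 (56.0), Rpl22 (29.0) and Rpl36a (29.3). The annotation holds 290 pseudogenes with symbols of the family, of which 3 were in the table, so reads of a member can be shared with near-identical copies, and the level of Rps12-ps3 is uncertain. It stood at 41.7 CPM per kb by either length, above Rps12 by merged exons (32.6) and below it by the principal transcript (113).

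Within a strain, the core genes moved together from mouse to mouse. For each mouse the family median is the median over the 77 core genes of log2 CPM minus that gene's mean in B6. It ran from -0.41 to 0.83 over all mice, with a pooled SD of 0.15 within strains, and small and large subunit medians tracked each other (r = 0.984 over the mice, as deviations from the strain means). A first principal component of these deviations held 66.98% of the variance of the core genes, and all 77 loaded on it with the same sign. With every gene scaled to equal variance the share was 68.8%, against 8.94% for all 13289 genes. The median correlation between a pair of core genes was 0.698, beside -0.002 for pairs of all genes. These are correlations over mice that share libraries, depth and scaling, and log10 total counts had r = -0.084 with the family median.

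The members closest to the rest of the family were Rpl32, which had 89.0% of its within-strain variance in common with the family median, and Rpl4 with 87.9%, both of the large subunit. The members that followed it least were Rps19bp1 with 6.01% and Rpl7l1 with 12.9%, neither of them a core gene, then Rps16 with 21.1% and Rpl24 with 22.1%. Strain accounted for a median of 36.4% of a member's variance and 25.9% of any gene's, where 15.03% of the degrees of freedom lie between strains. The largest shares were those of Rps3a1 (51.7%), Rpl28 (46.2%) and Rpl19 (45.8%), and the smallest those of Rpl24 (14.4%), Rps23 (18.8%) and Rps10 (20.9%). The 5 surrogate variables, factors estimated from all genes and put into every test below, held 53.6% of the within-strain variance of the family median. For a single gene the median share was 43.3% among the core genes and 21.4% among all genes. The fitted changes below are thus changes beside variation that the surrogate variables had already taken up.

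**Figure D1:**
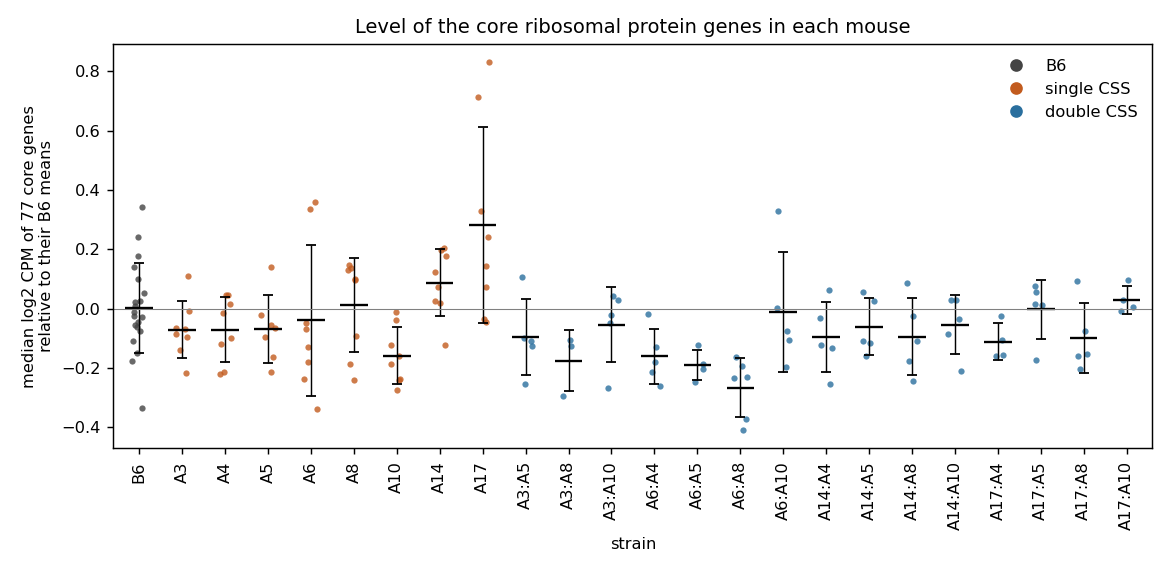
Family median of each mouse (vertical axis, median log2 CPM of the 77 core genes relative to their B6 means) by strain (horizontal axis). Points are mice, lines and bars are means and SDs. The highest points are 2 A17 mice at 0.71 and 0.83, and the lowest strain mean is that of A6:A8 at -0.27.

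Most members differed among the strains. A joint F-test of all 23 strain coefficients (edgeR's quasi-likelihood test, Benjamini-Hochberg adjusted p under 0.05, here termed a call) called 67 of the 83 members (80.7%), and 51.4% of all genes. Since the core genes move together, the 67 are not independent observations. The family median itself had 37.9% of its variance between strains. Adjusted p-values were 2.53e-11 for Rps3a1 and 1.27e-06 for Rpl28. The joint test of the 15 interactions, which asks whether any double CSS departs from the sum of its substitutions, called 19 members (22.9%) beside 27.4% of all genes, led by Rps27l (0.000300), Rps14 (0.000561) and Rpl22 (0.00144). Taken effect by effect, 9.94% of the 664 tests of a member's main effect were called, against 11.1% for all genes, and 6.99% of its 1245 interactions, against 5.96%. Effect by effect, the family was thus called about as often as all genes. The directions were uneven, since only 17.2% of the called interactions of members were higher than the sum, whereas 56.2% of those of all genes were. In A5 and the 9 interactions in which edgeR called no member, 0 to 14 of the 77 core genes had an unadjusted p under 0.05, and DESeq2 called no member except 1 in A14:A4.

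**Figure D2:**
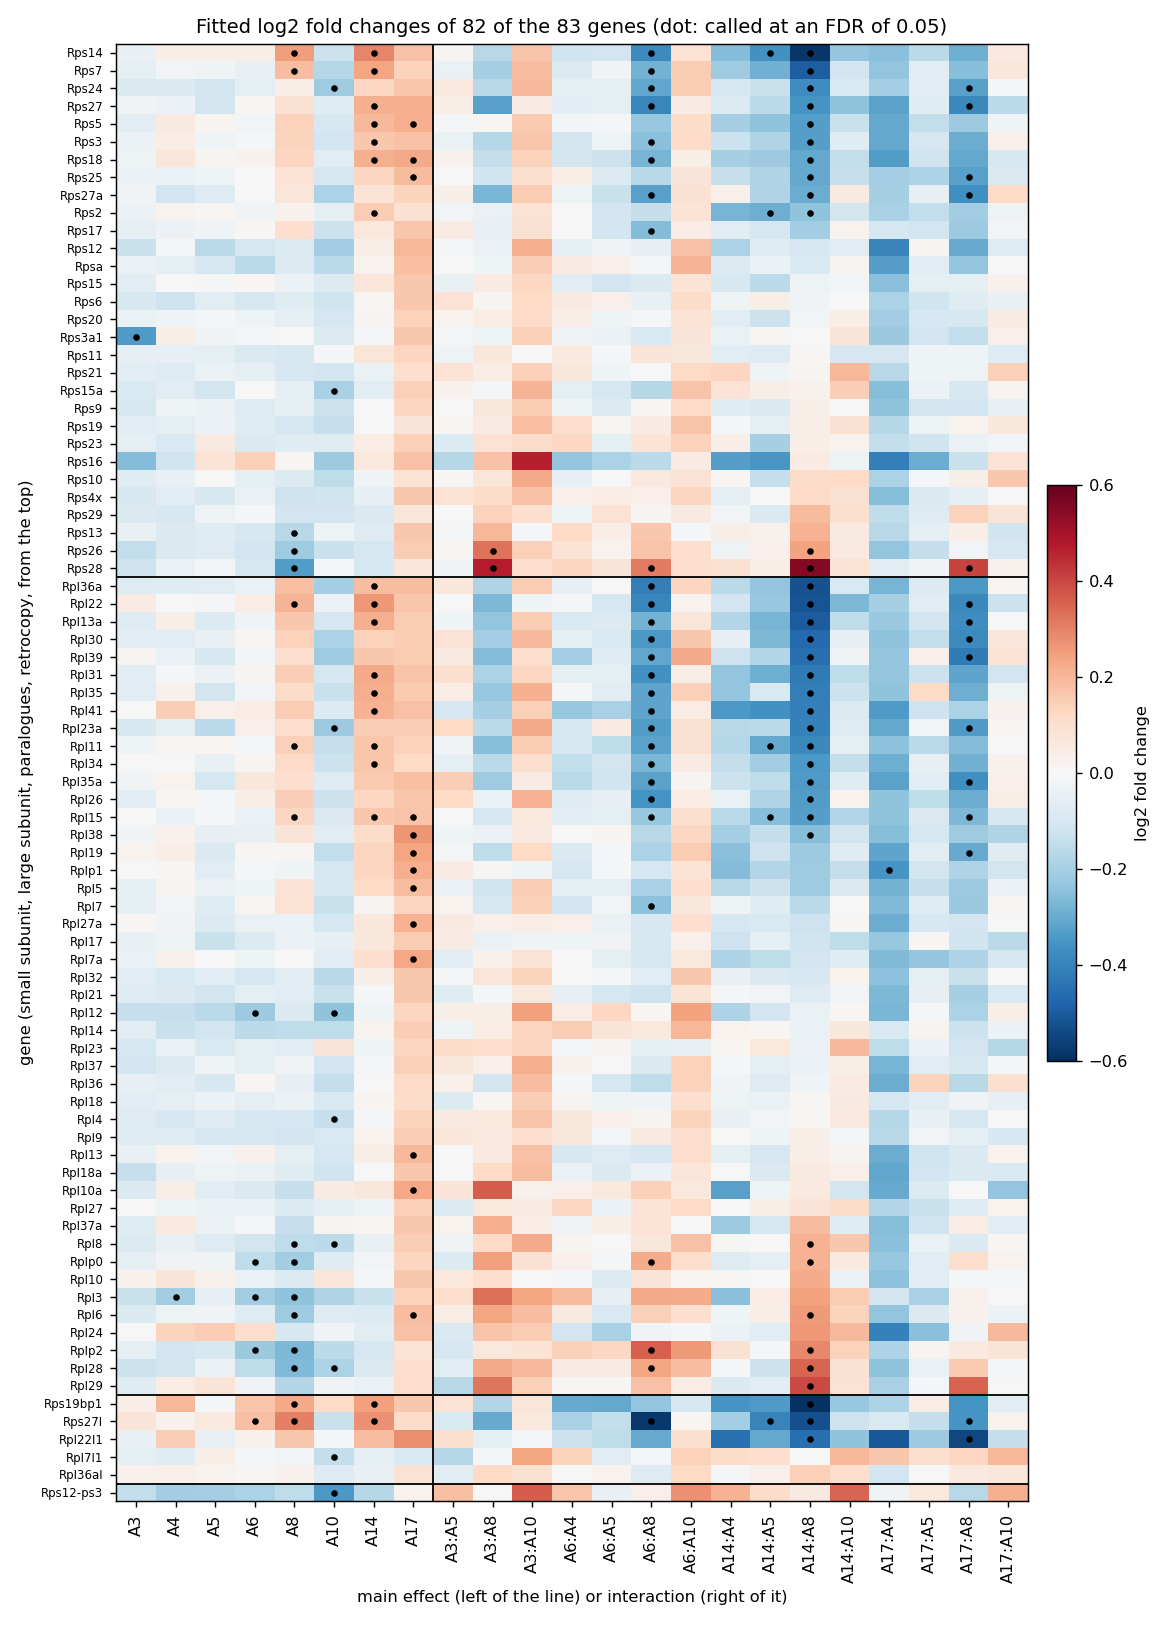
Fitted log2 fold changes (colour, red higher and blue lower) of 82 of the 83 genes (rows) for the 8 main effects against B6 and the 15 interactions (columns), with dots for calls. Calls of members are most numerous in A8, A14, A17 and A10 and in the interactions A6:A8, A14:A8 and A17:A8, and are absent from A5 and 9 of the interactions. The shares called of members and of all genes were 20.5% and 29.6% in A8, 21.7% and 22.5% in A14, 15.7% and 3.67% in A17, and 10.8% and 6.64% in A10. They were 33.7% and 24.8% in A6:A8, 43.4% and 32.4% in A14:A8, and 18.1% and 8.68% in A17:A8.

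Chromosome 17 gave the broadest shift of the family. In A17 liver all 77 core genes were fitted above B6, with a median log2 fold change of 0.16, and 81.8% of them had an unadjusted p under 0.05 beside 19.1% of all genes. Core genes move together from mouse to mouse, so these genes of the same mice are not independent observations. After adjustment 13 members were called, all higher, where 3.67% of all genes were called in either direction and 1.71% as higher. They were led by Rpl19 of the large subunit (log2 fold change 0.24, SE 0.052, adjusted p = 0.00845 by edgeR's quasi-likelihood test), Rpl38, known for its role in translating Hox mRNAs (0.26, SE 0.060, adjusted p = 0.00961), and Rpl7a (0.23, SE 0.055, adjusted p = 0.0125). Rplp1 (0.22, adjusted p = 0.0172) and Rpl5, which carries 5S ribosomal RNA (0.18, adjusted p = 0.0424), rose as well. Rps18 and Rpl10a, the 2 called members that lie on chromosome 17 itself, rose by 0.23 each.

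The mice of the A17 strain were far apart. Rpl19 ranged from 49.0 to 91.9 CPM (median 57.4, n = 8) in A17 and from 40.9 to 58.3 CPM (median 47.5, n = 20) in B6. The family median of the 8 A17 mice was -0.05 at the lowest, 0.19 at the median and 0.83 at the highest (mean 0.28 ± 0.33, SD), against -0.33, -0.02 and 0.34 in B6 (0.00 ± 0.15). The groups overlapped, and the mice labelled E124 and E125, at 0.71 and 0.83, stood above every other mouse of the study. Without these 2 mice, a step chosen after the data were seen, A17 kept 1 member called and a median of 0.10, and the family median of the remaining 6 mice was 0.12 ± 0.15.

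Other genes moved with the family in E124 and E125. Their Kupffer cell and macrophage markers summed to 492.8 and 595 CPM (all 8 listed genes, Clec4f at a mean of 109 CPM over all mice), where B6 had 306 to 543. Short mRNAs of the respiratory chain summed to 7342 and 7335 CPM (B6 3571 to 5130), and mitochondrial mRNAs to 33784 and 30896 CPM (B6 18075 to 28742). Their part in the A17 result was not tested. The A17 count also depended on the surrogate variables, with 75 members called without any, 2 with 10 and 0 when genes of low count were left out before the variables were estimated. Leaving out 1 A17 mouse at a time gave 4 members called without E131, 6 without E125, 7 without E124 or E518, 20 without E268 and 33 without E584. These fits kept the scaling and surrogate variables estimated from all mice. Myh4, a myosin of skeletal muscle and the single gene of that marker list in the table, was called higher in A17 (log2 fold change 5.09), at 0 to 23.5 CPM (median 0.321) in A17 and 0 to 1.45 CPM (median 0) in B6. Its part in the A17 result was not tested.

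In double CSSs with chromosome 17 the family did not stand as high. The A17:A4 interaction was fitted below 0 in all 77 core genes, with a median of -0.24, and 68.8% had an unadjusted p under 0.05 beside 15.6% of all genes. Here too the 77 genes are not independent observations. The family median of the 4 A17:A4 mice was -0.16, -0.15, -0.10 and -0.03. A single member was called, Rplp1 (log2 fold change -0.35, SE 0.097, adjusted p = 0.0446 by edgeR's quasi-likelihood test), where 1.21% of all genes were called and 0.61% were lower. Rplp1 stood at 143, 164, 164 and 166 CPM in A17:A4, at 174 to 341 CPM (median 209.8) in A17 and at 176.2 ± 23.7 CPM (SD, n = 20) in B6. This interaction is measured against the same A17 mice, and without E124 and E125 no member was called and the median was -0.19. Of all genes, 81 were then called, against 161 with these 2 mice. The call of Rplp1 was also lost without E571, E653 or E679, 3 of the 4 A17:A4 mice, with 10 surrogate variables and with low-count genes left out. The interactions of A17 with A5 and with A10 had medians of -0.07 and 0.00 and no member called (background 0% and 0.113%).

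Chromosome 10 moved the family the other way. In A10 liver 73 of the 77 core genes were fitted below B6, with a median of -0.12, and 9 members were called, all lower, beside 6.64% of all genes in either direction and 2.97% as lower. The core genes move together, so their number is not a number of independent observations. The family median of the 8 A10 mice ran from -0.27 to -0.01 (median -0.17), within the B6 range of -0.33 to 0.34. The retrocopy Rps12-ps3 fell by 0.35 (SE 0.093, adjusted p = 0.0130 by edgeR's quasi-likelihood test), from 23.2 ± 3.85 CPM in B6 (n = 20) to 18.3 ± 2.20 in A10 (n = 8). Rps12 itself, on chromosome 10, had a log2 fold change of -0.21 and an adjusted p of 0.0552. Reads can be shared between Rps12 and its retrocopy, so a change of the one cannot be told from a change of the other. A mapping difference between the alleles of Rps12 was not tested. Rpl28 fell by 0.19 (SE 0.056, adjusted p = 0.0277) and Rps24 by 0.21 (SE 0.065, adjusted p = 0.0294). The count was 1 without mouse E677 and 1 without E678, 4 without E731 and 5 without E122, and 24 with low-count genes left out. In A10 2 of 11 mitochondrial mRNAs were also called lower, with a list median of -0.23, and their part in the calls of members was not tested. In the crosses A3:A10 and A6:A10 the fitted interactions had the opposite sign, with medians of 0.14 and 0.10, and called no member (background 1.17% and 0.0527%), nor did A14:A10 (background 4.16%). The medians of A14:A10 and A17:A10 were -0.003 and -0.004. All of these interactions are measured against the same A10 mice, so an opposite sign is not separate evidence.

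Chromosome 14 raised part of the family. In A14 liver 18 members were called, all higher, beside 22.5% of all genes in either direction and 9.98% as higher, while the median over the core genes was only 0.04 and 27 of the 77 were fitted below B6. Rps14, whose loss of a copy underlies a human anaemia, rose by 0.29 (SE 0.061, adjusted p = 0.000145 by edgeR's quasi-likelihood test). Rpl22, an RNA-binding protein of the large subunit, rose by 0.26 (adjusted p = 0.000232), and Rps27l, a relative of Rps27 that p53 induces, by 0.27 (adjusted p = 0.000417). Rps14 stood at 117.4 to 175 CPM in A14 (mean 144 ± 18.5, n = 8) and at 89.2 to 148 CPM in B6 (113 ± 15.8, n = 20), so the groups overlapped in part. In the 8 A14 mice mitochondrial mRNAs summed to 26671 to 31507 CPM and hepatocyte markers to 59182 to 125899 CPM (B6 98244 to 157868), and their part in the A14 calls was not tested. With 10 surrogate variables 2 members were called, with low-count genes left out 6, without mouse E44 9 and without E45 10.

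Chromosome 8 moved members in both directions. In A8 liver 7 members rose (8.43%, beside 12.9% of all genes) and 10 fell (12%, beside 16.7%). The 17 called were 20.5% of the family, a smaller share than the 29.6% called among all genes, and the median over the core genes was -0.05. Rps28, a small-subunit protein near the exit of the mRNA channel, fell by 0.33 (SE 0.068, adjusted p = 5.70e-05 by edgeR's quasi-likelihood test). Rpl28 fell by 0.26 (SE 0.059, adjusted p = 0.000227). The stalk proteins Rplp2 and Rplp0 fell by 0.27 and 0.21 (adjusted p = 0.000570 and 0.00126), while their partner Rplp1 had a log2 fold change of -0.03 and was not called. On the other side Rps27l rose by 0.30 (SE 0.066, adjusted p = 0.000183), Rps14 by 0.25 (adjusted p = 0.00169) and Rpl22 by 0.20. Rpl11, which binds Mdm2 when ribosome assembly is disturbed, rose by 0.15 (adjusted p = 0.0449).

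The A8 mice showed these changes with overlap at the edges. Rps28 stood at 33.2 to 43.2 CPM in A8 (median 38.4, mean 38.0 ± 3.48, n = 8) and at 35.5 to 61.2 CPM in B6 (median 52.6, mean 51.6 ± 6.99, n = 20). The A8 mice filled the lower end of the B6 range. Rps27l stood at 79.2 to 127 CPM in A8 (mean 101 ± 16.7) and at 66.5 to 99.2 CPM in B6 (mean 77.4 ± 8.22). Rpl28 stood at 42.7 to 60.2 CPM in A8 (median 51.3) and at 51.9 to 76.4 CPM in B6 (median 63.1).

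In double CSSs with chromosome 8 the leading members lay nearer to B6 than in A8. The A14:A8 interaction called 36 members, 8 higher and 28 lower than the sum of the substitutions, beside 32.4% of all genes (18.1% higher and 14.3% lower). A6:A8 called 28, with 4 higher and 24 lower (all genes 24.8%, with 13.4% and 11.4%), and A17:A8 called 15, with 1 higher and 14 lower (8.68%, with 4.95% and 3.73%). A3:A8 called Rps28 and Rps26, both higher (7.56% of all genes, 4.91% higher). The A17:A8 count was 7 without mouse E310, 9 without E608 and 9 without the A17 mice E124 and E125, and the A6:A8 count was 18 without E540. Without E124 and E125, 997 of all genes were called in A17:A8, against 1154 with them. With low-count genes left out A6:A8 had 10 members called and A17:A8 had 3. The A3:A8 count was 1 without E689. These interactions share the A8 and B6 mice, so their calls are not separate evidence of each other.

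Rps28 was called in each of the 4 crosses, with interactions of 0.47 in A3:A8 (SE 0.117, adjusted p = 0.00674 by edgeR's quasi-likelihood test), 0.31 in A6:A8 (adjusted p = 0.0171), 0.55 in A14:A8 (SE 0.108, adjusted p = 1.81e-05) and 0.41 in A17:A8 (adjusted p = 0.0128). In A14:A8 it stood at 45.3, 47.2, 54.3, 61.9 and 62.5 CPM, all above the 8 A8 mice, and in A3:A8 at 46.9, 48.1 and 54.4 CPM. The substitutions A14 and A8 summed to -0.44 in the fit, whereas the double CSS differed from B6 by 0.11. In A17:A8 the 5 mice spread from 43.2 to 68.5 CPM. Rps28 is itself on chromosome 17, so the A17:A8 interaction concerns a gene on a substituted chromosome.

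Rps27l, Rps14 and Rpl22 gave the opposite pattern. Rps14 had an interaction of -0.58 in A14:A8 (SE 0.107, adjusted p = 5.00e-06 by edgeR's quasi-likelihood test), where the substitutions summed to 0.54 and the double CSS differed from B6 by -0.04. It stood at 92.6 to 126 CPM in A14:A8 (mean 107 ± 13.9, n = 5), at 144 ± 25.6 CPM in A8 and at 144 ± 18.5 CPM in A14. The double CSS thus lay among the B6 mice (113 ± 15.8 CPM) rather than above either single CSS. Rpl22 had -0.52 in A14:A8 (adjusted p = 9.72e-06), -0.39 in A6:A8 (adjusted p = 0.000752) and -0.39 in A17:A8 (adjusted p = 0.00680). Its 5 A14:A8 mice stood at 73.7, 74.3, 76.0, 76.1 and 87.2 CPM and B6 at 82.3 ± 9.33 CPM. Both A8 and A14 had a mean of 102 CPM.

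Rps27l had an interaction of -0.58 in A6:A8 (SE 0.101, adjusted p = 5.99e-06 by edgeR's quasi-likelihood test), -0.53 in A14:A8 (adjusted p = 4.05e-05), -0.35 in A17:A8 (adjusted p = 0.0244) and -0.40 in A14:A5 (adjusted p = 0.0176). The 6 A6:A8 mice stood at 60.8 to 74.5 CPM (median 68.7), which overlaps the low end of B6 and lies below all 8 A8 mice. A14:A8 mice stood at 70.1, 70.1, 75.7, 77.8 and 90.7 CPM. In A14:A5 the members called besides Rps27l were Rps14 (-0.36, adjusted p = 0.0316), Rpl11 (-0.31, adjusted p = 0.0359), Rps2 and Rpl15, 5 in all and each lower than the sum, beside 4.04% of all genes and 1.55% as lower. That count was 0 with no surrogate variables and 0 with 10, 1 without mouse E401 and 2 without E26 or E277.

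The relatives did not always go with their partners. In A14:A8 Rps27 (-0.35, adjusted p = 0.0293 by edgeR's quasi-likelihood test) and Rps27l were both called lower. Rpl22l1, which Rpl22 is known to hold down, was called lower together with Rpl22 (-0.45, adjusted p = 0.0166). Rpl36a was called lower (-0.52, adjusted p = 0.000341), whereas Rpl36al had 0.14 and an adjusted p of 0.301. Rpl7 had -0.16 and Rpl7l1 0.00, neither called, and Rps19bp1 was called lower (-0.59, adjusted p = 0.000844) while Rps19 had 0.04. Fau, a ribosomal protein gene outside the symbol rule, was called lower in A8 (-0.14, adjusted p = 0.0488) and higher in the A14:A8 interaction (0.23, adjusted p = 0.0408).

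Markers moved in the same strains. In the A14:A8 interaction 5 of 10 hepatocyte genes were called higher with a list median of 0.53, 5 of 11 mitochondrial mRNAs lower with -0.55, 4 of 7 stellate cell genes lower and 2 of 6 erythroid genes higher. In A6:A8 6 of the 10 hepatocyte genes were called higher (list median 0.37) and 5 of the 11 mitochondrial mRNAs lower (-0.47). In A17:A8 these were 2 higher (0.29) and 5 lower (-0.47), and in A3:A8 3 hepatocyte genes were higher (0.43) and no mitochondrial mRNA was called. Hepatocyte markers summed to 54218 to 107072 CPM in A8, 94181 to 122089 CPM in A14:A8 and 98244 to 157868 CPM in B6. Mitochondrial mRNAs summed to 21742 to 31940 CPM in A8 and 19930 to 24477 CPM in A14:A8. Their part in the calls of members was not tested. With 10 surrogate variables the counts of 36, 28 and 15 members in A14:A8, A6:A8 and A17:A8 became 12, 2 and 1, and without any they were 37, 37 and 59.

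**Figure D3:**
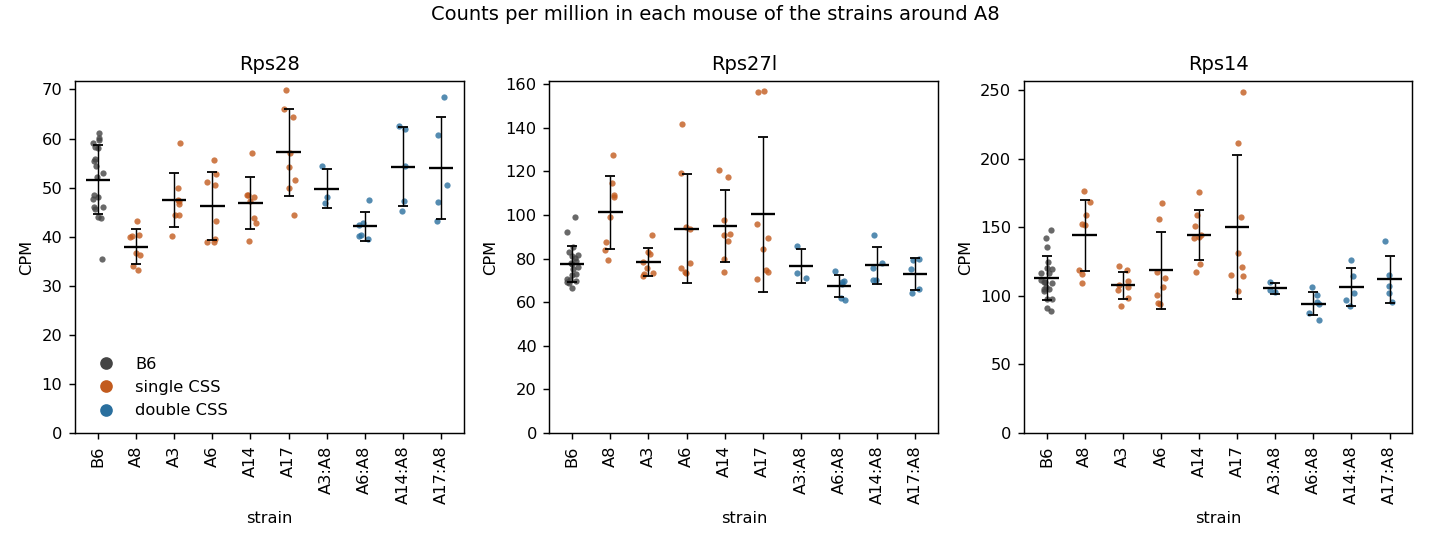
CPM of Rps28, Rps27l and Rps14 (vertical axes) in each mouse of B6, A8, the single CSSs crossed with it and the double CSSs (horizontal axes), with means and SDs. Rps28 is lowest in A8 (mean 38.0 CPM) and near B6 (51.6 CPM) in A14:A8, while Rps27l and Rps14 are high in A8 and A14 (Rps14 144 CPM in each) and back near B6 in A14:A8.

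A few members were called in the substitution of the chromosome that holds them. Rps3a1, a small-subunit protein on chromosome 3 (chr3:86137940-86142702 of GRCm38, minus strand, the start window of which is given above), fell by 0.34 in A3 (SE 0.052, adjusted p = 1.11e-07 by edgeR's quasi-likelihood test), the smallest p of any member in any main effect. It stood at 80.0 to 109 CPM in A3 (median 91.0, mean 91.7 ± 8.89, n = 8) and at 89.6 to 143 CPM in B6 (median 117.4, mean 117.1 ± 13.7, n = 20). It was as low in the double CSSs, at 82.8, 85.4, 86.3, 94.2 and 102 CPM in A3:A5, at 73.1, 91.8 and 91.9 CPM in A3:A8 and at 83.9 to 104 CPM in A3:A10. Its 3 interactions with A3 were -0.01, -0.03 and 0.14, none called. Over the study the 21 mice with an A/J chromosome 3 had a median of 91.5 CPM and the other 133 a median of 115, and every strain mean of carriers (85.6 to 94.7 CPM) lay below every other strain mean (99.4 to 143 CPM). Rps3a1 was the only member called in A3, where 3.7% of all genes were called and 1.76% were lower.

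In A4, where 13.5% of all genes were called and 5.88% as lower, Rpl3 of the large subunit was called lower (-0.21, SE 0.070, adjusted p = 0.0327 by edgeR's quasi-likelihood test). The A4 count was 14 rather than 2 with low-count genes left out, and 1 without mouse E674 or E748. In A6, where 8.09% of all genes were called (4.3% higher and 3.79% lower), 1 member rose and 5 fell, led by Rplp2 (-0.22, adjusted p = 0.00855). The A6 count was 17 with low-count genes left out, 1 without mouse E317, 2 without E191 and 3 without E163 or E318. No member was called in A5, where 0.768% of all genes were.

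**Figure D4:**
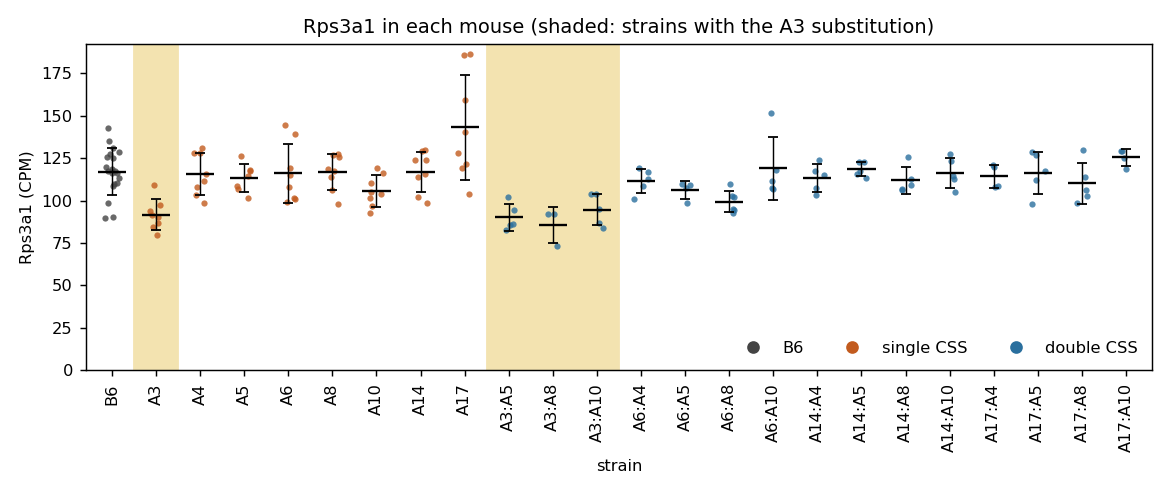
CPM of Rps3a1 (vertical axis) in each mouse by strain (horizontal axis), with means and SDs, shaded where the strain carries A/J chromosome 3. The 4 shaded strains have the lowest means, 85.6 to 94.7 CPM, and the other strain means lie between 99.4 and 143 CPM.

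Of the members on chromosomes 14 and 17, only Rpl15, Rps18 and Rpl10a were called higher in the substitution of their own chromosome. Rpl15 was also called higher in A17 (0.17) and A8 (0.13) and Rps18 in A14 (0.21), which are not their chromosomes. Rpl10a was called in A17 alone among the main effects. Rpl15, a large-subunit protein (chr14:18267823-18271391, minus strand), rose by 0.16 in A14 (SE 0.046, adjusted p = 0.00351 by edgeR's quasi-likelihood test), from 71.0 ± 7.92 CPM in B6 to 81.2 ± 6.15 CPM. It was back at 67.04 ± 6.98 CPM in A14:A8 and 68.3 ± 5.85 CPM in A14:A5 (n = 5 each), with interactions of -0.33 (adjusted p = 0.000514) and -0.26 (adjusted p = 0.0452). Over all strains the 28 mice with an A/J chromosome 14 had a median of 68.8 CPM of Rpl15 and the others 68.6 CPM. Rps24, on the same chromosome, had an A14:A8 interaction of -0.37 (adjusted p = 0.00370). Rps18 and Rpl10a on chromosome 17 rose by 0.23 in A17 (adjusted p = 0.00927 and 0.0126). Rps18 stood at 132.3 to 248 CPM in A17 (median 139.8) and at 76.3 to 153.4 CPM in B6 (median 126), and these values include E124 and E125. The authors aligned reads left over from the reference to an A/J version of the genome, so that reads of A/J alleles could be counted, and what remains of a mapping difference between alleles was not tested.

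Other parts of the translation machinery were compared with the family. The other TOP mRNAs, 21 genes of elongation and initiation factors and related proteins, followed it most closely. Their list median had r = 0.939 with the family median over all mice, as deviations from strain means (Spearman's rho 0.907, and r = 0.926 without the 2 mice farthest from the median), and the joint strain test called 17 of 21 (81.0%). In A17 they had 4 genes called higher and 0 lower with a median of 0.09, among them Eef1g (0.17, adjusted p = 0.0153 by edgeR's quasi-likelihood test) and Rack1, a protein of the small subunit with a symbol outside the rule (0.19, adjusted p = 0.0485). In A10 they had 0 higher and 5 lower. These genes share libraries, scaling and short transcripts with the family, so r is a description. Mitochondrial ribosomal proteins, which are nuclear genes of another ribosome, had r = 0.696 (rho 0.587, 0.633 without 2 mice), with 37 of 77 called in the joint test, led by Mrpl1 (adjusted p = 2.63e-12).

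Ribosome assembly factors, which make the ribosome but are not TOP mRNAs, did not track the family within strains (r = 0.090, rho 0.055, 67 genes, 40 called in the joint test, led by Polr1d and Ubtf of RNA polymerase I). In A8 they had 3 called higher and 31 lower, with a median of -0.19, and in the A14:A8 interaction 25 higher and 8 lower with 0.23. Members in those effects were 7 higher and 10 lower, and 8 higher and 28 lower. In A17 the assembly factors had 1 higher and 1 lower. The list on mTORC1 and Myc, which sets how much of these mRNAs is made and read, had r = -0.412 (rho -0.330, 24 genes, 15 called, led by Ddit4, an inhibitor of mTORC1). Short nuclear mRNAs of the respiratory chain had r = 0.685 (rho 0.589, 0.619 without 2 mice), with 39 of 50 called in the joint test, and went with the members called lower in A14:A8, where 10 were higher and 28 lower. Members called lower in A14:A8, A6:A8 and A17:A8 had shorter principal transcripts at the median than those not called. In A14:A8 the median was 792.5 bases, beside 906 for those not called and 992 for those called higher. In A6:A8 it was 788, beside 887 and 1035, and in A17:A8 771 beside 896.5 for those not called. The 1 member called higher in A17:A8, Rps28, had a transcript shorter than 771 bases. Over all members the log2 fold change had little correlation with log2 transcript length. The values of r were 0.058 in A14:A8, 0.089 in A6:A8 and 0.061 in A17:A8. The part of transcript length in these calls was not tested. Kupffer cell markers had r = 0.378 and nuclear-retained RNAs r = -0.295 with the family median.

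**Figure D5:**
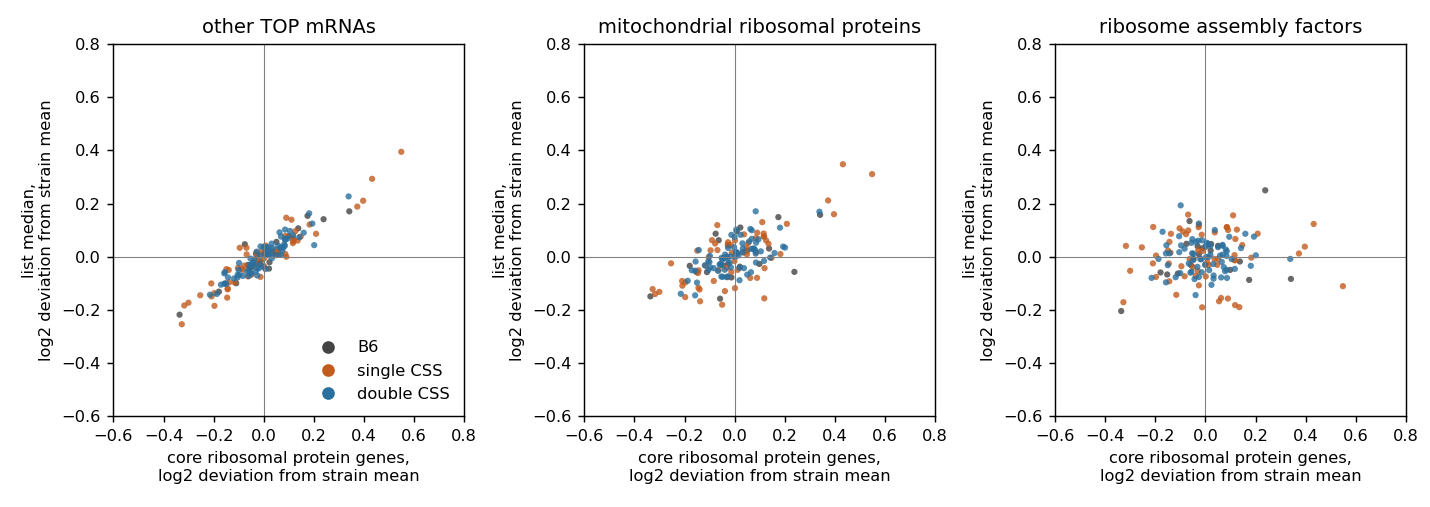
Median log2 deviation from the strain mean of the 77 core genes (horizontal axes) against that of 3 other lists (vertical axes), a point per mouse. Points of the other TOP mRNAs fall along a line (r = 0.939), those of mitochondrial ribosomal proteins less so (0.696), and those of the assembly factors do not (0.090).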

How the data were processed

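The values analysed were whole-number counts of reads per gene in the livers of all mice, as the authors deposited them. Per the labels and methods, libraries were prepared with a stranded total RNA kit and read as 50-base single ends. Reads were aligned with TopHat2 to mm10 with GENCODE annotation, the reads left over were aligned to an A/J version of the genome, and reads were counted with HTSeq. The authors describe a filter on low counts, but 1437 of the 13289 deposited genes do not reach 15 counts in 75% of the mice (all members do), so the table was not filtered to that limit. Whether the counting used strand is not given in the sources used here. No gene was removed for the main tests.

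Strains were taken from the labels, with each mouse as a replicate. Litters and flow cells were not used here, so any littermates counted as separate replicates. The p-values measure the spread between mice that was left after the surrogate variables, estimated over all strains together. They do not measure the spread within a single strain such as A17. The members and lists were chosen with earlier results of these data known. Gene positions, types and lengths came from GENCODE annotation of GRCm38. Counts were scaled by TMM and fitted with edgeR 4.0.16 (R 4.3.3) by the quasi-likelihood F-test over all 13289 genes, with 8 main effects against B6, 15 interactions and 5 surrogate variables from svaseq (sva 3.50.0). The p-values were adjusted by Benjamini and Hochberg within each effect, for genes on the substituted chromosomes and elsewhere apart, and over all genes in the joint tests, at an FDR of 0.05. Over all genes 11764 main effects and 11879 interactions were called, more than the authors report from a similar model. The cause of this difference was not tested. An SE is the size of the log2 fold change divided by the square root of F. CPM used the TMM-scaled totals, and log2 CPM a prior count of 2. Named members were the 3 of smallest p in each joint test and in each effect with a call, those called on a substituted chromosome, the relatives with their partners, the 3 highest and 3 lowest by level per kb and by variance between strains, and from each other list the 3 of smallest joint p. Results of 1 member are not reported here. Members and genes named besides these were chosen after their values were seen.

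Alternatives were 0 and 10 surrogate variables, TMM and surrogate variables made without the members, DESeq2 1.42.0 size factors, the DESeq2 test, a filter of 15 counts in 75% of the mice, 1 adjustment over all genes, and each mouse of a double CSS left out. Leaving out mice of single CSSs, leaving out 2 A17 mice, and the transcript length were added after seeing the data. Fits without a mouse kept the TMM scaling, surrogate variables and dispersions (spread of counts) estimated from all mice. They are thus not fully independent of the mouse left out. Member counts under an alternative are given without the share of all genes called under it, except where 2 A17 mice were left out. On simulated counts for the 13289 genes the fit recovered 94 of 100 genes changed by a log2 fold change of 0.5 in A8, and 98 of 100 changed by 1 in A14:A8, with 3 and 5 unchanged genes called. The counts were drawn for each gene independently, and these changes were larger than the called main effects and interactions of members. The simulation thus does not show how well changes of that size are recovered, or how variation shared between genes affects the calls. Total counts of 4638701 to 30465477 set the precision of low genes, and counts of members were at least 19.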

Additional observations from a re-analysis of the deposited data

Results flagged for a closer look

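In 2 of the 22 strains examined a mouse stood apart from the rest of its strain in the family median (Dixon's test at the 95% level, which chance passes in about 1 of 20 groups). These were an A3:A10 mouse at -0.268 and an A17:A5 mouse at -0.173. Among 37 values of named members in a strain, 2 had such a mouse, Rpl22 at 87.2 CPM in A14:A8 and Rplp1 at 143 CPM in A17:A4.

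In 6 crosses the effect of a substitution on members differed with the other chromosome by edgeR's test of the interaction itself. A3:A8 had 2 members (2.41%, beside 7.56% of all genes), led by Rps28 (0.47). A6:A8 had 28 (33.7% and 24.8%), led by Rps27l (-0.58). A14:A5 had 5 (6.02% and 4.04%), led by Rps27l (-0.40). A14:A8 had 36 (43.4% and 32.4%), led by Rps14 (-0.58). A17:A8 had 15 (18.1% and 8.68%), led by Rpl22 (-0.39). A17:A4 had 1 (1.2% and 1.21%), Rplp1 (-0.35). The share of members was thus below that of all genes in A3:A8 and about equal to it in A17:A4. The values are log2 fold changes beyond the sum of both substitutions.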

How the results depend on the processing

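Direction was followed in 39 pairs of a member and an effect, the 3 of smallest p in each effect with a call and those called on a substituted chromosome. None of these changed direction under any alternative, and other pairs named above were not followed. Of the 39, 10 were called under all 7 alternatives set out at the start. Among them were Rps3a1 in A3, Rplp2 in A6, Rps28 and Rpl28 in A8 and Rps28 in A3:A8, A14:A8 and A17:A8. Counts of members called moved more, and the cause was not tested. The share of all genes called under each setting is not given beside these counts. They thus do not show whether the members or all genes moved. With 0 surrogate variables A8 had 29, A10 15, A17 75, A3:A8 4, A14:A5 0, A17:A4 15, A17:A8 59 and the joint interaction test 42. With 10 they were A10 16, A14 2, A17 2, A3:A8 1, A6:A8 2, A14:A5 0, A14:A8 12, A17:A4 0, A17:A8 1 and joint interactions 6. With genes under 15 counts in 75% of the mice left out they were A3 2, A4 14, A6 17, A8 26, A10 24, A14 6, A17 0, A3:A8 4, A6:A8 10, A14:A5 1, A17:A4 0 and A17:A8 3. Surrogate variables and TMM without the members gave 1 in A3:A8 and 2 in A14:A5, and the DESeq2 test 1 in A14:A4 and 2 in A17:A4. Without the 2 highest A17 mice there was 1 in A17, 0 in A17:A4 and 9 in A17:A8. Leaving out each mouse gave 1 to 2 in A4 (1 without E674 or E748), 1 to 6 in A6 (1 without E317, 2 without E191, 3 without E163 or E318), 14 to 22 in A8, 1 to 11 in A10 (1 without E677 or E678), 9 to 22 in A14 (9 without E44, 10 without E45) and 4 to 33 in A17 (4 without E131, 6 without E125, 7 without E124 or E518, 20 without E268, 33 without E584). It gave 1 to 3 in A3:A8 (1 without E689), 18 to 29 in A6:A8 (18 without E540), 0 to 1 in A14:A4 (1 without E732 or E733), 1 to 5 in A14:A5 (1 without E401, 2 without E26 or E277), 30 to 34 in A14:A8, 0 to 1 in A17:A4 (0 without E571, E653 or E679) and 7 to 19 in A17:A8 (7 without E310, 9 without E608). No paired analysis was possible because the labels give no replicate numbers that strains share.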
